A study of Mus musculus with 8 samples.

Results

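The circadian clock genes examined here are Per1, Per2, Per3, Cry1, Cry2, Arntl, Clock, Nr1d1, Nr1d2 and Dbp, taken by name from a table of read counts per gene. They are 10 of its 54735 genes, and all 10 passed edgeR's filter on low counts, which left 16538 genes. RNA came from bilateral punches of the ventral tegmental area (VTA), the midbrain nucleus where the mesolimbic dopamine neurons lie, of 4 control (CTR) and 4 social stressed (SS) mice of the DBA2/J strain. The sample labels give all 8 mice as male and P21. SS pups were exposed for 30 min per day, from postnatal day 14 to 21, to an unfamiliar adult male of the CD1 strain that had been gonadectomized. CTR pups were not handled, and the study's methods place the sacrifice of both groups on the day after the last exposure. Each library is 1 mouse, with up to 2 mice of a sex from a litter, so littermates within a group are possible. Libraries are named by group and replicate number, and values by library follow the order 1, 2, 3, 5 in CTR and 2, 3, 4, 5 in SS. The hour at which each mouse was killed is not given in the sources used here, and 1 sample per mouse gives a level and not a rhythm. For genes that change over the day, group and time of day cannot be told apart.

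The clock is a feedback loop of transcription. CLOCK, or its relative NPAS2, pairs with BMAL1 (the product of Arntl) on E-box motifs and switches on the Per and Cry genes, whose proteins return to the nucleus and inhibit that pair. In a second loop the same pair switches on Nr1d1 and Nr1d2, nuclear receptors that repress Arntl through ROR elements, on which RORA and RORB act as activators. Dbp, a further E-box target, encodes a factor that acts on D-boxes together with TEF and HLF and against NFIL3. In mouse tissues the Per, Nr1d and Dbp transcripts peak at times of day roughly opposite to Arntl and Npas2, and Per1 is also induced acutely by neuronal activity and by glucocorticoids.

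Library totals ranged from 20036086 to 47319997 counts, and levels are given as CPM, counts scaled to a common library size after TMM normalization. CTR-1 and CTR-2 had no count for 1425 and 1236 of the tested genes, against 22 to 459 in the other 6 libraries. CTR-5 and SS-5 are labelled male but carried 14997 and 6551 counts of Xist, with at most 3 counts of 4 Y-linked genes. The other 6 had 2293 to 7892 Y-linked counts. The 6 dopamine neuron markers, Th and Slc6a3 among them, summed to 710 to 1607 CPM in CTR but only 130 to 205 in SS. Of the 6, 4 passed the test as lower in SS, beside 0.0847% of all tested genes. Nr4a2, another of the 6, went the other way, with overlapping groups. Its log2 fold change of SS relative to CTR was 0.16 (edgeR adjusted p = 0.90). Astrocyte, oligodendrocyte, microglia, endothelial, GABA neuron and glutamate neuron markers were all detected, and their summed levels overlapped between the groups. Single markers could still differ widely between libraries. The glutamate neuron marker Slc17a7 read 13.9, 243, 56.9 and 403 CPM in CTR and 21.5 to 64.5 CPM in SS. From such punches alone fewer cells of a type and less RNA per cell cannot be told apart. In stained sections the study found no significant difference between CTR and SS in the number of VTA dopamine neurons. Those counts came from other mice, perfused for staining, and covered only part of the VTA. In males the study also reported weaker VTA staining for the proteins of Th and Slc6a3 in SS than in CTR. Whether the punches of both groups took the same tissue was not tested. The part of the marker differences in the clock gene values was not tested.

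Matches to motifs of clock regulation are shown for the genes whose promoter windows hold them, except Cry2, whose segment is not printed. RefSeq windows (GRCm38.p6, 250 bases before to 50 after a transcript start) were matched for 9 of the 10 genes, all but Per2, giving 13 windows. Both strands were searched for the E-box CACGTG, its variant CACGTT (E-prime box), the D-box TTATGTAA and a second form TTACGTAA, the core TAGGTCA of the ROR element, and the cyclic AMP response element TGACGTCA. No match overlapped another. The segments, written 5′ to 3′ on the strand of the gene with the motif in capitals, hold an E-box of Per1 (chr11:69098736-69098835, plus strand), both D-boxes of Per3 (chr4:151044794-151044893, minus strand), an E-prime box and an E-box of Cry1 (chr10:85185072-85185171, minus strand), an E-prime box of Nr1d1 (chr11:98775378-98775477, minus strand) and the ROR core of Arntl (chr7:113207529-113207558, plus strand).
Per1: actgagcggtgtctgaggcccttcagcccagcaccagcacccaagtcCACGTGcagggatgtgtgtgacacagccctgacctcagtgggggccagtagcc
Per3: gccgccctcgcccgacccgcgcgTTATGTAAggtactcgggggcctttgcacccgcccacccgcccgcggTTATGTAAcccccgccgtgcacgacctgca
Cry1: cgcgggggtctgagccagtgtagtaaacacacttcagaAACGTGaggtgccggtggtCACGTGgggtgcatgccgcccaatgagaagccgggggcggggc
Nr1d1: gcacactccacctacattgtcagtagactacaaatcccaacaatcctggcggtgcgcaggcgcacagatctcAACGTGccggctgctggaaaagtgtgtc
Arntl: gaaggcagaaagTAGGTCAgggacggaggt
The E-box was found in 1 of the 2 windows of Per1 and in the window of Cry1, and in 7.15% of all 32851 windows of this length. The matching window of Per1 belongs to a start inside the annotated gene, which begins at base 69095217. The E-prime box occurred in Cry1, Cry2 and Nr1d1 and in 4.68% of all windows. The first D-box form occurred in Per3 and in 0.938% of all windows, and the ROR core in 1 of the 2 windows of Arntl and in 2.61%. The second D-box form and the cyclic AMP response element were in none of the 13 windows, and in 0.119% and 1.79% of all. The windows of Clock, Nr1d2 and Dbp held none of the 6 motifs. These are matches of letters in short windows and describe no binding in these samples.

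No clock gene differed between SS and CTR past the threshold. With edgeR's quasi-likelihood test 0 of the 10 had an adjusted p under 0.05 (Benjamini-Hochberg over all tested genes), beside 0.0847% of all tested genes, and DESeq2 and limma voom also called 0. At an unadjusted p under 0.05 edgeR picked out 1 of the 10, Per1, beside 6.55% of all tested genes. DESeq2 picked out 1 and voom 2. The groups overlapped in all 10 genes, where 4.67% of all tested genes showed no overlap. Log2 fold changes, given as SS relative to CTR with their standard error (SE), ran from -0.34 for Nr1d1 to 0.36 for Per1, with 4 below and 6 above 0. Their median was 0.06, against 0.0037 over all tested genes. The 95% interval of every one of the 10 lay within a doubling and a halving, so smaller differences remain possible. The sign of 6 of them turned when CTR-1 was left out: without it the log2 fold change was -0.00063 for Per2, -0.00086 for Per3, 0.12 for Cry1, 0.06 for Arntl, -0.0048 for Clock and -0.08 for Nr1d2, each on the other side of 0. The sign of Per2 also turned without CTR-3, to -0.15.

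**Figure D1:**
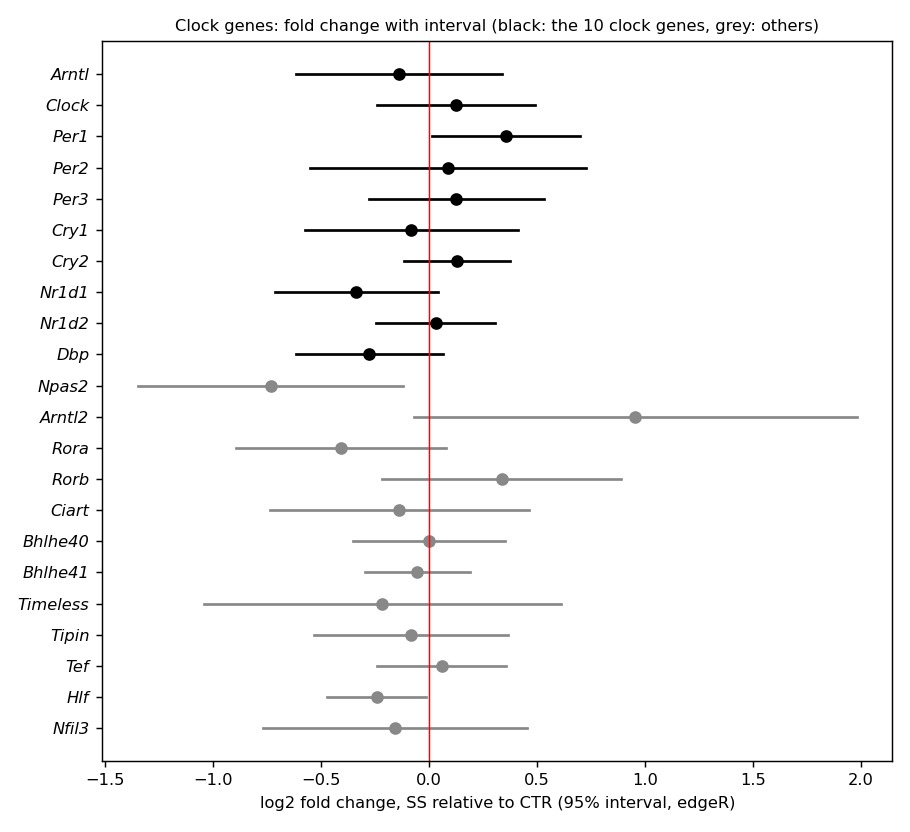
Log2 fold change of SS relative to CTR (x axis) with its 95% interval from edgeR's quasi-likelihood fit, for the clock genes and further clock genes (rows), 4 libraries per group. Among the 10 clock genes only the interval of Per1, 0.02 to 0.70, leaves out 0.

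Arntl (chromosome 7, 113207465 to 113314126, GRCm38), the gene of BMAL1, read 28.2, 12.8, 18.2 and 21.9 CPM in CTR and 18.5, 18.7, 19.7 and 16.8 CPM in SS. CTR-1 was the highest and CTR-2 the lowest of the 8 libraries, and the SS values lay between them. It averaged 20.3 ± 6.45 CPM in CTR against 18.4 ± 1.22 CPM in SS (SD, n = 4 per group), with a log2 fold change of -0.14 (SE 0.22, edgeR adjusted p = 0.92). Clock (chromosome 5, 76209868 to 76304792), which encodes the partner of BMAL1, read 45.8, 61.4, 62.2 and 86.0 CPM in CTR and 67.3, 77.9, 67.7 and 65.7 CPM in SS. CTR-1 was here the lowest of the 8 and CTR-5 the highest. Averages of 63.9 ± 16.6 and 69.7 ± 5.58 CPM (SD, n = 4 per group) gave a log2 fold change of 0.12 (SE 0.17, edgeR adjusted p = 0.90).

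Per1 (chromosome 11, 69095217 to 69109960) had the highest fold change of the 10. It read 38.0, 65.2, 48.1 and 51.5 CPM in CTR and 61.3, 66.2, 72.4 and 60.0 CPM in SS. All 4 SS values lay above 3 of the 4 CTR values, and CTR-2 lay among the SS values. Per1 averaged 50.7 ± 11.3 CPM in CTR against 65.0 ± 5.63 CPM in SS (SD, n = 4 per group), with a log2 fold change of 0.36 (SE 0.16, unadjusted p = 0.042 and adjusted p = 0.75 in edgeR's test). Exact permutation over the 70 ways to split the libraries gave a two-sided p = 0.086, where 4 against 4 can reach 0.029 at the lowest. Leaving out 1 library moved the log2 fold change between 0.24 without CTR-1 (adjusted p = 0.69 in the same edgeR test) and 0.50 without CTR-2 (adjusted p = 0.65).

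The other period genes, which encode further subunits of the inhibitory complex, were less separated. Per2 (chromosome 1, 91415982 to 91459324) read 13.2, 25.6, 7.86 and 18.5 CPM in CTR and 17.6, 18.7, 15.03 and 17.9 CPM in SS. Its highest and lowest libraries, CTR-2 and CTR-3, were both controls and stood 3.25-fold apart, the widest ratio of the 10 genes. It averaged 16.3 ± 7.57 CPM in CTR against 17.3 ± 1.58 CPM in SS (SD, n = 4 per group), and the log2 fold change was 0.09 (SE 0.29, edgeR adjusted p = 0.97). Per3 (chromosome 4, 151003652 to 151044665), whose window carries the D-boxes printed above, read 24.4, 35.3, 29.6 and 46.3 CPM in CTR and 35.0, 38.4, 33.5 and 41.4 CPM in SS. The SS libraries sat inside the CTR range, which CTR-1 and CTR-5 bounded. Averages of 33.9 ± 9.38 and 37.1 ± 3.54 CPM (SD, n = 4 per group) gave a log2 fold change of 0.13 (SE 0.19, edgeR adjusted p = 0.91).

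Cryptochromes, the other arm of the inhibitory complex, also overlapped. Cry1 (chromosome 10, 85131700 to 85185064) read 22.9, 16.5, 15.9 and 10.6 CPM in CTR and 17.2, 14.3, 17.0 and 13.6 CPM in SS, with CTR-1 the highest and CTR-5 the lowest of all 8. It averaged 16.5 ± 5.03 CPM in CTR against 15.5 ± 1.83 CPM in SS (SD, n = 4 per group), and its log2 fold change was -0.08 (SE 0.23, edgeR adjusted p = 0.96). Cry2 (chromosome 2, 92403646 to 92434043) varied least, at 72.1, 89.2, 68.0 and 79.0 CPM in CTR and 79.1, 87.8, 81.6 and 88.8 CPM in SS, a ratio of 1.31 between the highest and the lowest library. Averages of 77.1 ± 9.29 and 84.3 ± 4.75 CPM (SD, n = 4 per group) corresponded to a log2 fold change of 0.13 (SE 0.11, edgeR adjusted p = 0.84) with a 95% interval from -0.11 to 0.37. It was 0.068 without CTR-3 and 0.21 without CTR-2.

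Nr1d1 (chromosome 11, 98767932 to 98775333), the REV-ERB alpha repressor of Arntl, had the lowest fold change of the 10. It read 68.9, 80.8, 112 and 91.9 CPM in CTR and 61.3, 58.2, 70.5 and 90.5 CPM in SS. SS-2 and SS-3 were below every CTR library, SS-4 exceeded CTR-1, and SS-5 was above 2 of the 4. Nr1d1 averaged 88.4 ± 18.4 CPM in CTR against 70.1 ± 14.6 CPM in SS (SD, n = 4 per group), with a log2 fold change of -0.34 (SE 0.17, unadjusted p = 0.077 and adjusted p = 0.75 in edgeR's test). It shares 263 exonic bases with Thra on the opposite strand (GENCODE M21), 8.55% of its exonic length, and whether reads were counted by strand is not given in the sources used here. Nr1d2 (chromosome 14, 18204054 to 18239127), its paralog REV-ERB beta, read 63.6, 84.7, 86.5 and 95.8 CPM in CTR and 81.1, 87.7, 83.5 and 85.7 CPM in SS. The SS libraries were close together and within the range of CTR, whose lowest was CTR-1. Averages of 82.7 ± 13.6 and 84.5 ± 2.81 CPM (SD, n = 4 per group) gave a log2 fold change of 0.03 (SE 0.13, edgeR adjusted p = 0.98).

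Dbp (chromosome 7, 45705088 to 45710203), the D-box activator and one of the most rhythmic transcripts of mouse tissues, read 95.3, 66.3, 85.4 and 83.9 CPM in CTR and 60.2, 60.2, 63.7 and 89.4 CPM in SS. SS-2, SS-3 and SS-4 were below every CTR library, whereas SS-5 was above 3 of the 4. It averaged 82.7 ± 12.1 CPM in CTR against 68.4 ± 14.1 CPM in SS (SD, n = 4 per group), with a log2 fold change of -0.28 (SE 0.16, unadjusted p = 0.10 and adjusted p = 0.77 in edgeR's test). Leaving out 1 library moved the log2 fold change of Dbp between -0.20 without CTR-1 and -0.43 without SS-5 (edgeR adjusted p = 0.78 and 0.96), and that of Nr1d1 between -0.21 without CTR-3 and -0.48 without SS-5 (edgeR adjusted p = 0.79 and 0.96). Over the 6 libraries without CTR-5 and SS-5, which carry Xist, it was -0.42 for Dbp and -0.46 for Nr1d1 (edgeR adjusted p = 0.36 and 0.41). Dbp shares 539 exonic bases with Sphk2 on the opposite strand, 18.0% of its exonic length.

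**Figure D2:**
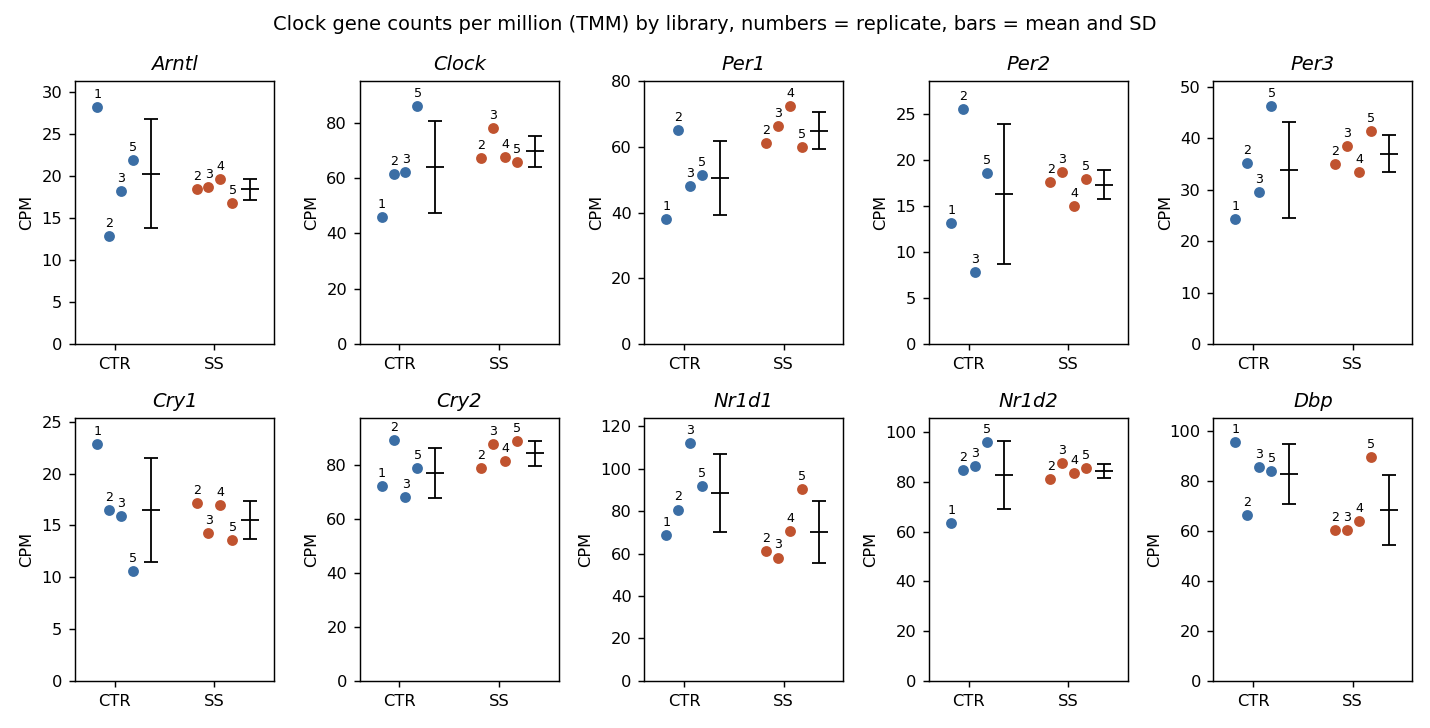
CPM (y axis, after TMM normalization, from 0) of the 10 clock genes in each library, with CTR in blue and SS in red, the replicate number at each point, and the mean with its SD (n = 4) beside the points. No gene separates the groups: CTR-2 lies among the SS values of Per1, and SS-5 among the CTR values of Nr1d1 and Dbp.

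The 30 other clock genes read here were activators, repressors, D-box factors, and the kinases, ligases and cofactors of the clock proteins. None of the 30 passed the threshold in edgeR's test (2 lower and 1 higher at an unadjusted p under 0.05, beside 3.70% and 2.85% of all tested genes). On the log2 scale 16 were below 0 and 14 above, with a median of -0.01. Npas2, which can stand in for Clock as partner of BMAL1, read 6.77, 11.2, 6.52 and 6.62 CPM in CTR and 4.64, 4.63, 4.48 and 4.97 CPM in SS. All SS values of Npas2 were below all CTR values, as for 2.21% of all tested genes. Its log2 fold change was -0.73 (SE 0.28, unadjusted p = 0.023 and adjusted p = 0.75 in edgeR's test, exact permutation p = 0.029), and -0.50 without CTR-2 (adjusted p = 0.80 in the same edgeR test). Arntl2, a paralog of Arntl, averaged 2.41 ± 1.34 CPM in CTR against 4.70 ± 1.21 CPM in SS (SD, n = 4 per group), a log2 fold change of 0.95 (SE 0.47, edgeR adjusted p = 0.75).

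Of the activators of the second loop, Rora had a log2 fold change of -0.41 (SE 0.22) and Rorb of 0.34 (SE 0.25), with edgeR adjusted p-values of 0.76 and 0.82. Rora was at -0.21 without CTR-2 and Rorb at 0.12 without CTR-1. The D-box factors Tef and Nfil3 had log2 fold changes of 0.06 (SE 0.14) and -0.16 (SE 0.28). The third, Hlf, read 78.1, 84.6, 72.4 and 82.0 CPM in CTR and 61.0, 73.5, 67.4 and 66.2 CPM in SS, where SS-3 alone reached above the lowest CTR library. That is a log2 fold change of -0.24 (SE 0.11, unadjusted p = 0.041 and adjusted p = 0.75 in edgeR's test). The E-box repressors Ciart (-0.14, SE 0.27), Bhlhe40 (-0.00036, SE 0.16) and Bhlhe41 (-0.05, SE 0.11) and the partners Timeless (-0.22, SE 0.38) and Tipin (-0.08, SE 0.21) were all below 0 on the log2 scale, though Bhlhe40 moved to 0.00036 with upper-quartile normalization, and the smallest edgeR adjusted p of the 5 was 0.93. Of the 17 kinases, ligases and cofactors, Gprasp1, whose product binds PER1, was the most abundant. It averaged 906 ± 101 CPM in CTR against 1121 ± 73.3 CPM in SS (SD, n = 4 per group) without overlap, as 2.47% of all tested genes did on that side, with a log2 fold change of 0.31 (SE 0.09, unadjusted p = 0.0054 and adjusted p = 0.64 in edgeR's test). Usp2, a deubiquitinase that acts on clock proteins, had a log2 fold change of -0.36 (SE 0.19, edgeR adjusted p = 0.76), and of -0.21 without CTR-5.

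To see whether the libraries differed in clock phase, transcripts with opposite daily peaks were set against each other within each library, as differences of log2 CPM, with no test. Dbp to Arntl was 1.75, 2.36, 2.22 and 1.94 in CTR and 1.70, 1.68, 1.69 and 2.41 in SS. The SS libraries other than SS-5 were nearly equal, and SS-5 stood apart above them, so that the SS range (0.73) was wider than that of CTR (0.61). The average was 2.07 ± 0.28 in CTR and 1.87 ± 0.36 in SS (SD, n = 4 per group), a difference of -0.20 that was smaller than either SD. It was -0.38 without SS-5, -0.42 without CTR-5 and SS-5, and -0.10 without CTR-2. Nr1d1 to Arntl was 1.29, 2.65, 2.62 and 2.07 in CTR and 1.73, 1.63, 1.84 and 2.43 in SS, where SS-5 was again the highest of its group. Per2 to Arntl separated the control libraries most, at -1.09, 0.99, -1.21 and -0.24 in CTR, and stayed between -0.39 and 0.10 in SS. It thus ranged over 2.20 log2 units across CTR and 0.49 across SS. Per3 to Npas2 was 1.65 to 2.79 in CTR and 2.88 to 3.04 in SS, which restates the separation of Npas2, since Per3 overlapped between the groups.

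**Figure D3:**
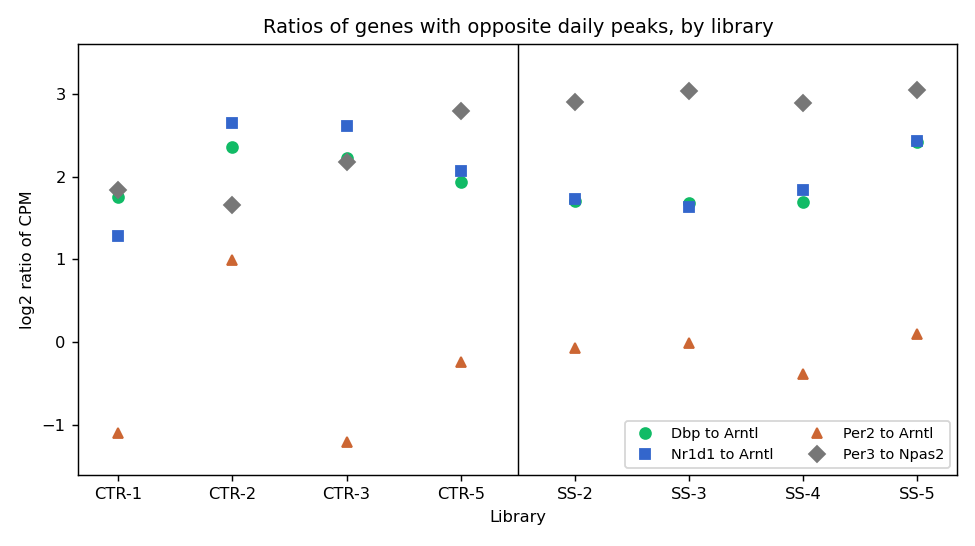
Log2 ratio of CPM (y axis) between transcripts with opposite daily peaks, for each library of CTR and SS. Per2 to Arntl spans 2.20 log2 units across CTR and 0.49 across SS, and SS-5 stands above the other SS libraries for Dbp to Arntl.

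Arntl was also set against each other clock gene across the 8 libraries. No relation passed the test, and 8 libraries leave wide room for relations in either direction. The strongest was with Per1 (Pearson r = -0.68, exact permutation p = 0.075). Spearman's rho for this pair was -0.24 (exact permutation p = 0.58), and the adjusted p over the 9 relations computed was 0.47 for r and 0.79 for rho. Without CTR-1 and CTR-2, the libraries farthest from the median of Arntl, r was -0.12, so that the value rests on them. Within groups, with the group means removed, r was -0.79. Per2, Per3, Nr1d1 and Nr1d2 had r = -0.43, -0.40, -0.19 and -0.53, which became 0.18, 0.34, -0.03 and 0.63 without CTR-1 and CTR-2 but -0.48, -0.71, -0.25 and -0.77 without CTR-5 and SS-5. Clock, Cry1 and Cry2 had r = -0.27, 0.27 and -0.59, which became 0.75, -0.48 and -0.20 in the first case and -0.53, 0.69 and -0.58 in the second. Dbp ran with Arntl rather than against it (r = 0.45, exact permutation p = 0.30), with -0.11 in the first case and 0.56 in the second. Relative to the mean of the 8 libraries, CTR-1 was high for Arntl (0.57) and below the mean for Per1, Per2, Per3, Nr1d1 and Nr1d2 (-0.58 to -0.17), and CTR-2 was low for Arntl (-0.56) and above the mean for all 5 (0.02 to 0.67). In CTR-2 Per3 (0.02), Nr1d2 (0.03) and Nr1d1 (0.06) were close to their means. Dbp followed Arntl in both, at 0.36 and -0.16. In CTR-1 Clock was also low (-0.52) and Cry1 high (0.55). CTR-3 was near its mean for Arntl (-0.05), low for Per2 (-1.02) and high for Nr1d1 (0.53).

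**Figure D4:**
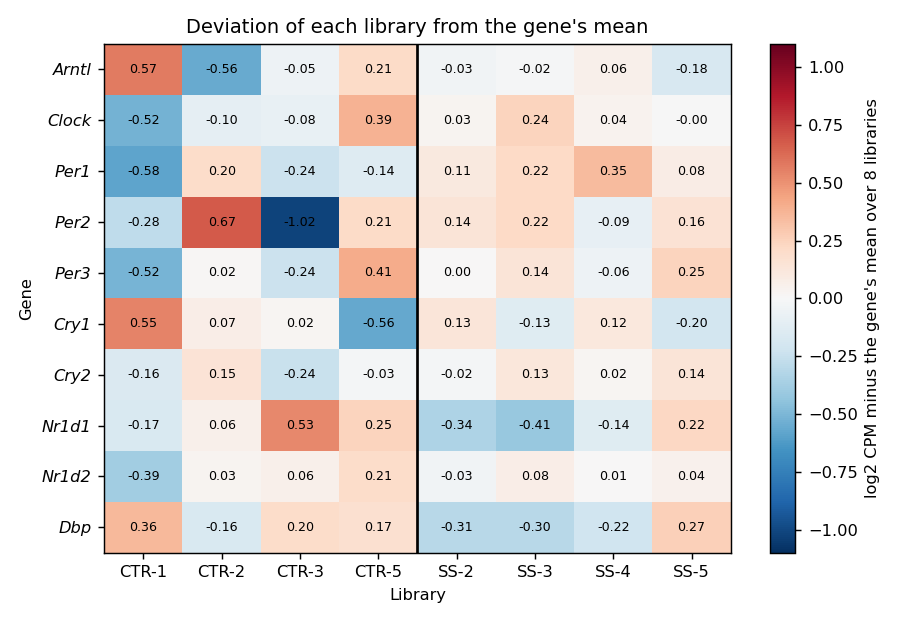
Log2 CPM of each clock gene (rows) in each library (columns) minus the gene's mean over the 8 libraries, as colours in log2 units. The deviation farthest from 0 is that of Per2 in CTR-3 (-1.02), and the CTR columns hold the strongest colours.

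Clock transcripts were more uneven among controls than among stressed mice, as most genes were. The SD of log2 CPM was larger in CTR than in SS for 9 of the 10 genes, all but Dbp, and the median SD was 0.35 in CTR and 0.13 in SS. Of the 10212 genes with a mean of at least 10 CPM, 84.7% had the larger SD in CTR, with medians of 0.26 and 0.13. Within groups Per2 was the most variable clock gene, with an SD of 0.52 on the log2 scale, above 95.8% of those 10212 genes, followed by Arntl (0.34) and Cry1 (0.34). Cry2 (0.13) and Nr1d2 (0.18) were below the median gene (0.22). The genes whose pattern over the 8 libraries was most like that of Dbp, among 11725 genes with a mean of at least 5 CPM, were Foxa1 (Pearson r = 0.96), Mtln (0.95) and Mpped2 (0.95), whereas Nr1d1 had r = 0.64. For Arntl they were Gtpbp10 (0.98), Dyrk1b (0.97) and Ccdc127 (0.96). These coefficients describe 8 libraries of different depth and carry no test.

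Levels between genes were compared per kilobase of annotated exons, as CPM per kb averaged over the 8 libraries (SD, n = 8). Nr1d1 (25.8 ± 5.91) and Dbp (25.2 ± 4.804) were the most abundant, followed by Nr1d2 (15.5 ± 1.69), Cry2 (12.8 ± 1.24) and Per1 (10.3 ± 1.995). Clock (4.86 ± 0.864), Cry1 (4.79 ± 1.06), Per3 (3.69 ± 0.706), Per2 (2.87 ± 0.870) and Arntl (2.57 ± 0.587) were less abundant in CPM per kb. From Dbp down to Clock each gene was above the next in 8 of 8 libraries. Nr1d1 exceeded Dbp in 4 of 8, Clock exceeded Cry1 in 3 of 8 and Per2 exceeded Arntl in 5 of 8, so these neighbours did not differ beyond their spread. Cry1 exceeded Per3 in 6 of 8 libraries and Per3 exceeded Per2 in 7 of 8.

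Genes that feed into the clock or follow it were read as further lists, and none of their members passed the threshold with all 8 libraries. All 10 immediate early genes, induced by neuronal activity, had positive log2 fold changes with a median of 0.51, and 3 had an unadjusted p under 0.05, beside 2.85% of all tested genes on that side. Their summed level was 375 CPM in CTR-2 and 179 to 236 CPM in the other CTR libraries, against 306 to 394 CPM in SS. Sik1, a kinase that restrains the resetting of the clock by light, read 22.9, 23.3, 20.2 and 20.3 CPM in CTR and 33.9, 29.8, 37.7 and 26.0 CPM in SS, without overlap (log2 fold change 0.56, SE 0.15, edgeR adjusted p = 0.54). Junb, a subunit of the transcription factor AP-1, was also without overlap (0.52, SE 0.15, edgeR adjusted p = 0.57), as 2.47% of all tested genes were with SS higher. Egr1, the most abundant of the list, was at 0.54 (SE 0.27, edgeR adjusted p = 0.75), and at 0.97 without CTR-2. Fos, a partner of JUN proteins in AP-1 and named after its values were seen, read 18.6, 47.8, 18.6 and 20.5 CPM in CTR and 40.4, 50.5, 54.7 and 36.4 CPM in SS. Its log2 fold change was 0.79 (SE 0.29, edgeR adjusted p = 0.75) and 1.24 without CTR-2 (edgeR adjusted p = 0.029). CTR-2 was also the control library with the highest Per1 and Per2, and a link of these with the immediate early genes was not tested.

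Of the 10 glucocorticoid response genes, 8 had negative and 2 positive log2 fold changes, with a median of -0.23. Their summed level was 821 and 735 CPM in CTR-1 and CTR-2, the libraries with the most tested genes at 0, against 568 and 571 CPM in CTR-5 and CTR-3 and 559 to 585 CPM in SS. Much of that sum came from Mt1 and Mt2, at 371 and 168 CPM in CTR-1 and 291 and 94.1 CPM in CTR-2. Single genes of the list went either way in CTR-1. There Tsc22d3 (122 CPM) was the highest of all libraries, whereas Fkbp5 (9.20 CPM) and Klf9 (42.2 CPM) were the lowest. Sgk1, a kinase gene, was at -0.49 (SE 0.19), Errfi1, an inhibitor of the EGF receptor, at -0.33 (SE 0.15) and Mt1, a metallothionein and the most abundant, at -0.31 (SE 0.20), with edgeR adjusted p-values of 0.75, 0.75 and 0.79. Sgk1 was at -0.32 without CTR-2 and -0.11 without CTR-1 and CTR-2, and Mt1 at -0.083 without CTR-1, -0.46 without CTR-5 and 0.16 without CTR-1 and CTR-2. The 9 rhythmic output genes had a median log2 fold change of 0.01, with Hif3a at -0.83 (SE 0.35), Tsc22d3 at -0.24 (SE 0.11) and Por at 0.14 (SE 0.10), and edgeR adjusted p-values from 0.75 to 0.81 for these 3. Hif3a was at -0.43 without CTR-1, Por at 0.085 without CTR-5, and Tsc22d3 at -0.068 without CTR-1 and CTR-2. Cold- and heat-inducible genes, which follow the daily rhythm of body temperature, were 4 below and 4 above 0. Hspa8 (-0.24, SE 0.08) and Hsph1 (-0.20, SE 0.08), heat shock chaperones, were lower in every SS than in every CTR library, as 2.21% of all tested genes were, with edgeR adjusted p-values of 0.71 and 0.75. The 6 genes of CREB and light input had a median of -0.01, and the most abundant, Adcyap1r1, a receptor for the peptide PACAP, was at 0.20 (SE 0.12, edgeR adjusted p = 0.77), and at 0.092 without CTR-1.

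Genes of the suprachiasmatic nucleus, the master clock of the hypothalamus, were scarce, as 4 of 9 failed the filter on low counts and Avp and Six6 had no count in any library. The 5 tested had negative log2 fold changes with a median of -0.30. Apart from Vip these ran from -0.33 to -0.19 with SEs of 0.31 to 0.97, and the smallest edgeR adjusted p was 0.86. Their direction is therefore uncertain. Vip, a peptide of that nucleus that other neurons also make, averaged 22.8 ± 14.95 CPM in CTR against 8.21 ± 4.74 CPM in SS (SD, n = 4 per group), with a log2 fold change of -1.48 (SE 0.50, unadjusted p = 0.012 and adjusted p = 0.73 in edgeR's test). CTR-1 and CTR-2 were the highest, at 22.7 and 43.9 CPM, and CTR-3 and CTR-5, at 13.3 and 11.2 CPM, lay within the SS range of 3.05 to 13.4 CPM. The log2 fold change of Vip was -0.94 without CTR-2 and -0.59 without CTR-1 and CTR-2.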

How the data were processed

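RNA-seq libraries of VTA punches were analysed, 4 per group. The authors trimmed single-end reads (Cutadapt), mapped them to mm10 (STAR), summed reads over Ensembl genes (htseq-count) and deposited raw counts without normalization. The total per library, 20036086 to 47319997 counts, limits the precision of genes of low abundance. Groups follow the sample titles. Here genes were filtered with filterByExpr (minimum count 10, minimum total 15), TMM-normalized and tested for SS against CTR with the quasi-likelihood functions of edgeR 4.0.16 (R 4.3.3, default options, no covariate), with Benjamini-Hochberg adjustment over 16538 genes and a threshold of 0.05. SEs and 95% intervals come from the F statistic and its degrees of freedom. Log2 CPM used a prior count of 2. Each library is a separate mouse, so p-values reflect the spread between these mice. Alternatives were DESeq2 1.42.0 (the tool of the authors), limma 3.58.1 voom, other normalizations and filters, a stricter threshold, a replicate block and libraries left out. The procedure was also run on simulated data, with an outcome that is not reported here. That simulation gave both groups the same dispersion for each gene, unlike the larger spread of CTR in these data. The clock genes, lists, tests and alternatives were chosen with earlier results of these data known, and the ROR core was shortened from a longer form after its matches were seen. The genes named are the 10 clock genes, the other activators, repressors and D-box factors except 1 that is not reported here, up to 2 genes per direction with the smallest p and the most abundant gene of each further list, and the 3 genes most like Dbp and Arntl. Fos falls outside these rules and was added after its values were seen. Positions are from GENCODE M21 (GRCm38, the build of mm10) and promoter windows from RefSeq.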

Additional observations from a re-analysis of the deposited data

Results flagged for a closer look

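Among 76 groups of 4 libraries (each named gene of the lists, in CTR and in SS), 7 had a highest or lowest library farther from its neighbour, as a ratio to the whole range of log2 CPM, than Dixon's 95% limit allows. Chance would give 3.8 such groups had the genes been picked without regard to their values. Some were picked by their p-values, and Fos after its values were seen, so 7 and 3.8 cannot be compared directly. SS-5 was the highest of its group for Dbp, at 89.4 CPM against 60.2 to 63.7 CPM (ratio 0.855), and for Arntl2, at 6.51 CPM against 3.99 to 4.30 CPM (ratio 0.846). It was the lowest for Egr1, at 97.8 CPM against 131 to 134 CPM (ratio 0.935). CTR-2 was the highest control for Npas2, at 11.2 CPM against 6.52 to 6.77 CPM (ratio 0.932), and for Fos, at 47.8 CPM against 18.6 to 20.5 CPM (ratio 0.896). CTR-3 was the lowest control for Junb, at 23.1 CPM against 30.6 to 32.2 CPM (ratio 0.848). CTR-1 was the lowest control for Adcyap1r1, at 190.9 CPM against 268 to 275 CPM (ratio 0.931).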

How the results depend on the processing

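None of the 10 clock genes passed the threshold under any alternative run, and 165 of their 180 alternative fold changes kept their sign. Of the 76 other pathway genes tested, 1 (Fos) was called without CTR-2, and 1 (Fos) without CTR-1 and CTR-2, against 0 with all libraries, so leaving out 1 library gave 0 to 1. Over all genes edgeR called 14, DESeq2 called 81, and edgeR 22 with no filter, 22 with a mean count of at least 50, 27 with the bias-adjusted quasi-likelihood estimate, 7 at an adjusted p under 0.01 and 9 without CTR-5 and SS-5. Leaving out 1 library gave 6 to 19. With the replicate block edgeR called 9 genes and 0 of the 10 clock genes, with log2 fold changes of 0.20 for Per1, -0.18 for Dbp and -0.46 for Nr1d1. Deviations of same-numbered libraries from their group means were little correlated (r = -0.0062, -0.0077 and 0.06 for numbers 2, 3 and 5). Not every library correlated best with its own number. The r of CTR-5 and SS-5, which both carry Xist, was the highest of all pairs of a CTR and an SS library. Whether the numbers pair the mice cannot be told from these values.

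Some fold changes changed sign, none of them past the threshold, and the cause was not tested. Not all of these were near 0 with all libraries: the log2 fold change there was -0.31 for Mt1, -0.22 for Timeless and -0.16 for Nfil3. On the log2 scale the values were -0.037 for Per3, 0.23 for Cry1, -0.089 for Clock, -0.11 for Nr1d2, 0.038 for Bhlhe41, 0.45 for Timeless, -0.015 for Tef, 0.36 for Nfil3 and 0.16 for Mt1 without CTR-1 and CTR-2. With the replicate block they were 0.088 for Cry1, 0.057 for Arntl, -0.068 for Nr1d2 and -0.058 for Tef, and with voom 0.049 for Cry1 and 0.028 for Bhlhe40. For Bhlhe40 they were 0.00058, 0.00036, 0.0066 and 0.0040 with DESeq2, upper-quartile normalization, no filter and the bias-adjusted estimate, in that order. Leaving out 1 library in turn gave log2 fold changes from -0.15 to 0.39 for Per2, -0.00086 to 0.32 for Per3, -0.25 to 0.12 for Cry1, -0.30 to 0.059 for Arntl, -0.0048 to 0.30 for Clock, -0.075 to 0.11 for Nr1d2, -0.28 to 0.0061 for Ciart, -0.086 to 0.17 for Bhlhe40, -0.088 to 0.018 for Bhlhe41, -0.42 to 0.080 for Timeless, -0.21 to 0.042 for Tipin, -0.064 to 0.14 for Tef and -0.35 to 0.16 for Nfil3. The Dbp to Arntl ratio kept its sign under every alternative run for it.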
